A study of Mus musculus with 6 samples.

Results

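The genes examined were Ppara, Ppard, Rxra, Rxrb and Rxrg, the peroxisome proliferator-activated receptor (PPAR) and retinoid X receptor (RXR) genes other than Pparg. They are 5 of 21827 protein-coding genes with an annotated start site in GENCODE M21 on the mouse genome mm10, and they were chosen by name. An ATAC-seq peak is a stretch of DNA that the transposase cut more often than its surroundings, and its summit is the position of highest signal. A peak was assigned to a gene when its summit lay from 50 kb before to 50 kb after the gene, and to its promoter when the summit lay within 1 kb of a start site. Overlapping peaks of the 6 libraries were joined into regions, which gave 129 regions for the 5 genes of 194610 in all.

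All cells came from wild type C57BL/6J mice, males of 3 to 4 weeks, and were grown from the stromal vascular fraction, the part of fat tissue that holds adipocyte precursors. The beige (n = 2) and white (n = 2) adipocytes came from inguinal subcutaneous fat and the brown adipocytes (n = 2) from brown adipose tissue, and all were collected after 7 days. The beige and brown cultures were induced with the same mixture of insulin at 5 μg/ml, dexamethasone at 5 μM, triiodothyronine (T3) at 1 nM, rosiglitazone at 1 μM and isobutyl methylxanthine at 0.5 mM. They were then kept in insulin, T3 and rosiglitazone. The white cultures received insulin at 5 μg/ml, dexamethasone at 1 μM and isobutyl methylxanthine at 0.5 mM, then insulin alone, with neither T3 nor rosiglitazone. Beige and white cells therefore differed in medium, beige and brown cells in depot, and white and brown cells in both, which cannot be told apart. The study describes no brown ATAC-seq libraries, so whether they were prepared together with the others is not known here. In every comparison with brown, depot and any difference in preparation cannot be told apart. The sources used here give different insulin concentrations, and those of the sample labels are printed. The study calls its ATAC-seq replicates biological, without saying whether they were separate cultures, mice or pools of mice, and its account does not cover the brown libraries. An exact permutation test of 2 libraries against 2 has a smallest two-sided p of 0.333, so differences between conditions were described and not tested.

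PPARs are nuclear receptors that fatty acids and their derivatives switch on. Each binds DNA together with an RXR, at paired copies of the motif AGGTCA with 1 base between them (a DR1 element). Ppara encodes the receptor that drives fatty acid oxidation genes in liver and brown fat, and Ppard encodes a widely expressed relative that also acts on fatty acid use. Pparg, the adipocyte master regulator that rosiglitazone activates, is not among the genes examined. Rxra, Rxrb and Rxrg encode the 3 RXRs, which also partner the thyroid hormone, vitamin D, liver X and retinoic acid receptors. The thyroid hormone receptor, which T3 activates, typically uses a spacing of 4 bases (DR4).

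The sequences below are those of the elements on which the results turn. Each is 200 bases of the plus strand of mm10 and, except for the Rxra promoter, runs from 100 bases before to 99 bases after the strongest summit. The first is the strongest element open in the beige and brown but not in the white libraries, upstream of Ppara at chr15:85720685-85720884, in which no AGGTCA was found and nothing is in capitals.
Ppara, 14.2 kb upstream: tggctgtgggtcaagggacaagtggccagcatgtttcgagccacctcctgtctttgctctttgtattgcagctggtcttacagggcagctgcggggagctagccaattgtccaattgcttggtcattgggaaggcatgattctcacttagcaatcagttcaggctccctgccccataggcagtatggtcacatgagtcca
The next 2 lie at chr15:85724744-85724943 and chr15:85716137-85716336. The former ranked highest in the brown libraries and has its 2 AGGTCA matches in capitals, and the latter was near-absent from brown and has a match to the CTCF core in capitals.
Ppara, 10.1 kb upstream: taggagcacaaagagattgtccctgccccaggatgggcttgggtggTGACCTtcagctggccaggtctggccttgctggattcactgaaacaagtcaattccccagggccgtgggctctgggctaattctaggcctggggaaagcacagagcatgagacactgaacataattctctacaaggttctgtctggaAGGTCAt
Ppara, 18.7 kb upstream: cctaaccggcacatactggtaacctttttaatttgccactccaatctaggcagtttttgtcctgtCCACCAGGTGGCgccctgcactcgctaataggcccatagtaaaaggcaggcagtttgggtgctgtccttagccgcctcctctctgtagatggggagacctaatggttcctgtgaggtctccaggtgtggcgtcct
Ppard holds 3 elements within the gene that were open in all 6 libraries. They lie in introns at chr17:28236728-28236927, chr17:28257085-28257284 and chr17:28280496-28280695, and the AP-1 match TGANTCA is in capitals in each. An AGGTCA match in the first and in the last of them is left in lower case.
Ppard, 4.13 kb into the gene: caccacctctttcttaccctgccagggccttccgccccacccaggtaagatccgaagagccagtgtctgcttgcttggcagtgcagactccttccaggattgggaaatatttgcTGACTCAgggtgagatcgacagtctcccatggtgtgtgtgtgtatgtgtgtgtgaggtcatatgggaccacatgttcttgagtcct
Ppard, 24.5 kb into the gene: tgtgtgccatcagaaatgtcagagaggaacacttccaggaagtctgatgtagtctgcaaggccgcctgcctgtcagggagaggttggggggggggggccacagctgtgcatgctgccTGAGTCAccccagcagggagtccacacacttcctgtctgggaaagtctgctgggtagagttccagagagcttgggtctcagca
Ppard, 47.9 kb into the gene: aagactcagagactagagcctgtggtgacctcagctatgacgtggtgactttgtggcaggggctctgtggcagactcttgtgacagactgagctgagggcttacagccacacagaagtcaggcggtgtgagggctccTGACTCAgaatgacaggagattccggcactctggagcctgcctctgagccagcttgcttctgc
The Rxra promoter is shown for its base composition, as the 200 bases just upstream of the first start site used at chr2:27677001-27677200, with the 39 CpG dinucleotides in capitals. The second Rxra sequence is an intronic element at chr2:27718304-27718503 that was open in beige and brown only, with its DR4 match (2 mismatches) in capitals.
Rxra, promoter: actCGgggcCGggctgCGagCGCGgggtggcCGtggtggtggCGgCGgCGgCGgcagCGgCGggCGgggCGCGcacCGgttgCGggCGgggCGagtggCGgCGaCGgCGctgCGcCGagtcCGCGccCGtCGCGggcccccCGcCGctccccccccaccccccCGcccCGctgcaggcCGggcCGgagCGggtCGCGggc
Rxra, 41.96 kb into the gene: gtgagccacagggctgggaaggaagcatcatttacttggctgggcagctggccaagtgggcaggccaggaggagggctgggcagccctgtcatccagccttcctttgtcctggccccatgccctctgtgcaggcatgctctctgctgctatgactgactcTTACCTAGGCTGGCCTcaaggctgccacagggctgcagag
The Rxrb element at chr17:34036721-34036920 was open in beige only. It covers an intron and the adjoining ends of a pair of coding exons, with its DR1 match (1 mismatch) in capitals. The Rxrg sequence at chr1:167618113-167618312 is the promoter of an internal start site, with an AGGTCA match and the C/EBP match TTGCNNAA in capitals.
Rxrb, 5.01 kb into the gene: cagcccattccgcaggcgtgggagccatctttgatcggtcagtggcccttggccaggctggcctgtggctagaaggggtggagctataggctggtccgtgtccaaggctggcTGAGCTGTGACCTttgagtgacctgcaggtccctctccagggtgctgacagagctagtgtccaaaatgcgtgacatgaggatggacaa
Rxrg, internal promoter: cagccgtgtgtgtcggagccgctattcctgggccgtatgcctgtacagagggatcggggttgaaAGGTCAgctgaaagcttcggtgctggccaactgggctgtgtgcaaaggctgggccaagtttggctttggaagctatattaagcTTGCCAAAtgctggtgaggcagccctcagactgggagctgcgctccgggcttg

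Peaks of a list were ranked by fold enrichment, the signal over local background, and the rank was expressed as a percentile in which 100 is the highest peak of that list. The lists held 109143 to 127490 peaks. The white lists had lower fold values throughout, with medians of 4.12 and 3.99 against 4.42 to 5.04 in the other 4, so folds were not compared between libraries. White replicate 2 also stood slightly apart at promoters in general: its median promoter percentile was 84.4, against 86.4 to 89.7 elsewhere. A promoter peak was found in all libraries for 62.0% of all protein-coding genes, for 10 of 10 adipocyte markers and for 2 of 10 macrophage markers, and 7 macrophage markers had none in any library. The corresponding counts were 5 of 10 endothelial and 7 of 10 progenitor markers. An open promoter does not show that a cell type was present, and the part of other cells in the results was not tested. Among 8 brown adipocyte markers 6 were open throughout. The Ucp1 promoter was open in brown only, at low percentiles of 9.12 and 4.23, and Zic1 in both brown libraries and beige replicate 2. Of the 6, brown ranked above beige at 4 (33.4% of all promoters did) and beige above brown at 0 (17.3%). Brown ranked above white at 2 (34.8%). White ranked above brown at 1 (14.9%), Prdm16, with 48.0 and 31.1 in white, 15.2 and 11.3 in brown, and 3.96 and 2.82 in beige. In such bulk libraries a smaller share of open cells and a weaker signal per cell cannot be told apart.

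All 5 receptor genes had a promoter peak in all 6 libraries, as did 62.0% of all protein-coding genes. None of the promoters was gained or lost between beige, white and brown cells. Their ranks differed widely between genes. From the top the mean percentile over 6 libraries was 91.0 for Rxrg, 86.0 for Ppara, 72.4 for Ppard, 65.5 for Rxrb and 20.9 for Rxra. The order was identical in 5 libraries, while in beige replicate 1 Ppara ranked above Rxrg. The ranges of neighbours in this order overlapped across the 6 libraries except between Rxrb and Rxra.

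**Figure D1:**
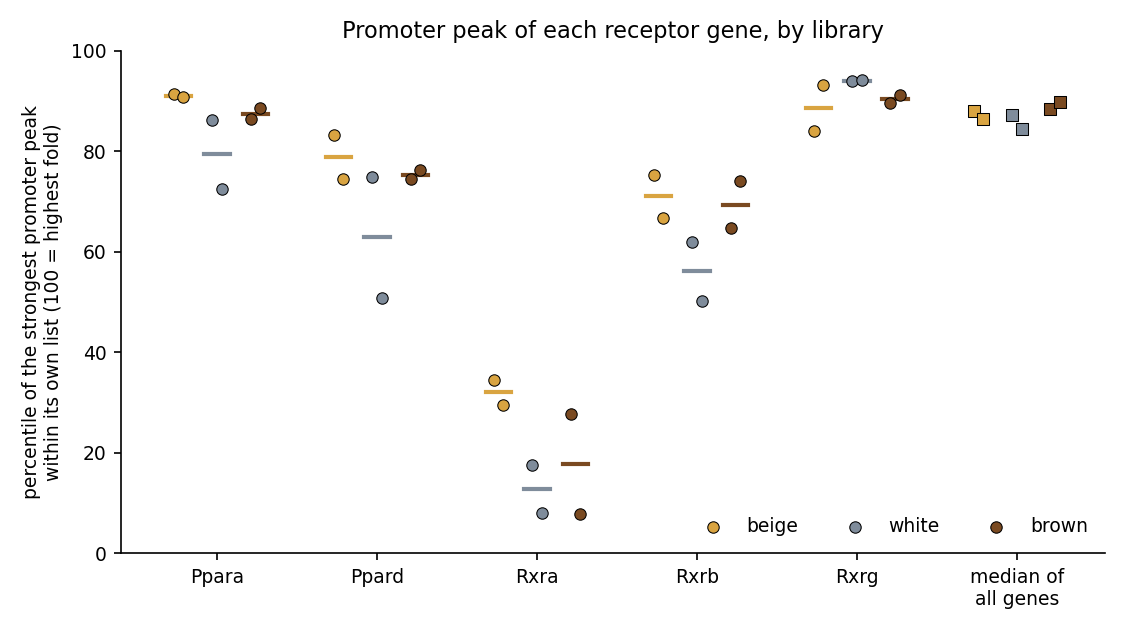
Percentile of the strongest promoter peak of each receptor gene within its own list (y axis, 100 is the highest fold), with 1 point per library and a bar at the mean of the 2 libraries of a condition. Squares give the median over all genes with a promoter peak. Rxra lies between 7.87 and 34.5 in every library and Rxrg between 83.9 and 94.1.

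For Ppara, the fatty acid oxidation receptor, the beige libraries gave promoter percentiles of 91.3 and 90.8, the white ones 86.3 and 72.5 and the brown ones 86.3 and 88.6. The beige libraries were above the other 4, and white replicate 2 was the lowest. The mean was 91.1 ± 0.344 (SD, n = 2) in beige, 79.4 ± 9.73 in white and 87.5 ± 1.63 in brown. Both brown libraries also lay above both white ones, although brown replicate 1 and white replicate 1 were nearly equal.

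The Ppard promoter ranked at 83.3 and 74.5 in beige, 74.9 and 50.9 in white, and 74.4 and 76.2 in brown. Here white replicate 1 lay within the range of the other 4 libraries and white replicate 2 alone was low. Beige and white therefore overlapped despite means of 78.9 and 62.9.

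The Rxrb promoter ranked at 75.3 and 66.7 in beige, 62.0 and 50.2 in white, and 64.6 and 74.1 in brown, with both white libraries below the other 4. Slc39a7, a zinc transporter gene on the opposite strand, begins just upstream of Rxrb and has the same promoter peak, so it cannot be assigned to either gene alone.

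Rxrg, an RXR with a restricted tissue range, was the exception. Its strongest promoter peak ranked at 83.9 and 93.2 in beige, 93.9 and 94.1 in white, and 89.6 and 91.1 in brown, so the white libraries were the highest. The differences were small, with means of 88.5 ± 6.52 in beige, 94.0 ± 0.136 in white and 90.4 ± 1.05 in brown (SD, n = 2).

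The Rxra promoter was the weakest. It ranked at 34.5 and 29.5 in beige, 17.5 and 8.03 in white, and 27.7 and 7.87 in brown, and 99.3% of the 13534 genes with a promoter peak in all 6 libraries had a higher mean rank. Both beige libraries lay above the other 4. These ranks are of the stronger of 2 promoter regions, which was not the same one in every library. In the region around the start sites (chr2:27676764-27677342) the ranks were 34.5 and 8.41 in beige, 17.5 and 1.98 in white, and 27.7 and 4.39 in brown, so the conditions overlapped. In the region just inside the gene (chr2:27677483-27678008) they were 27.9 and 29.5 in beige, 4.84 and 8.03 in white, and 12.5 and 7.87 in brown, and beige was above the other 4. The order of conditions at Rxra therefore held in the second region only. Over both regions the lowest -log10 q was 5.96, in white replicate 2. For the stronger peak of each library it was 6.73, in brown replicate 2.

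Counted over the genes, both beige libraries ranked above both white libraries at 3 of 5 promoters (Ppara, Rxra and Rxrb; 28.6% of all promoters). The reverse held at 1 of 5 (Rxrg; 19.8%). Beige ranked above brown at Ppara and Rxra (17.3% of all promoters) and brown above beige at none of the 5 (33.4%). Brown ranked above white at Ppara and Rxrb (34.8%), and white above brown at Rxrg (14.9%). The difference between the means of beige and white was 11.7 percentile points at Ppara, 16.0 at Ppard, 19.2 at Rxra and 14.9 at Rxrb, where the median over all genes was 0.69. At Rxrg it was -5.49. The median rank over all genes was 88.5 in beige and 86.9 in white, above the means of Ppard, Rxra and Rxrb. The differences of genes of similar rank were not compared. Without white replicate 2 the differences were 4.79 at Ppara, 3.95 at Ppard, 14.5 at Rxra and 9.02 at Rxrb, and without white replicate 1 they were 18.5, 28.0, 24.0 and 20.9 in the same order, so white replicate 2 set much of their size. With white replicate 2 left out, the same 3 genes ranked higher in beige than in the remaining white library, as did 38.3% of all promoters. With white replicate 1 left out Ppard joined them, and the share of all promoters was 51.5%. The direction at Rxra depended on the definition of the promoter. With 3 kb in place of 1 kb the difference between beige and white was -4.64, and with the start sites of all transcripts it was -1.82, since other peaks then represented the gene.

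Rxra and Rxrg each have a second group of start sites inside the gene. In Rxrg both groups were open in all libraries. The internal site at position 167618309 of chromosome 1, whose ranks are given above, stood above the upstream group in every library: the upstream group ranked at 78.0 and 83.1 in beige, 71.7 and 85.3 in white, and 79.8 and 79.1 in brown. In Rxra the internal protein-coding start sites at 27709292 and 27710583 of chromosome 2 had no peak within 1 kb in any library. The ranks of Rxra given above are therefore those of its upstream start sites.

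That promoter is among the most GC-rich of the genome. In the 1000 bp around its start sites the GC content reached 78.8%, and 99.8% of 21827 genes had a lower highest value. The ratio of observed to expected CpG was 1.01, higher than in 97.8% of genes. The 200 bases printed above are 87.5% G or C. Promoters of high GC ranked somewhat lower in general: the median percentile fell from 91.4 for 5536 genes at 50 to 60% GC to 76.8 for 312 genes at 75% or more. Rxra stood far below that group too, where the lower quartile was 66.1 and 4 of the 312 genes, Rxra included, had a mean percentile of 20.9 or lower. Rxrb reached 72.5% GC, Ppara 71.6%, Ppard 63.3% and Rxrg 55.2%. The part of base composition in the rank of Rxra was not tested. This comparison was chosen after the ranks were seen.

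**Figure D2:**
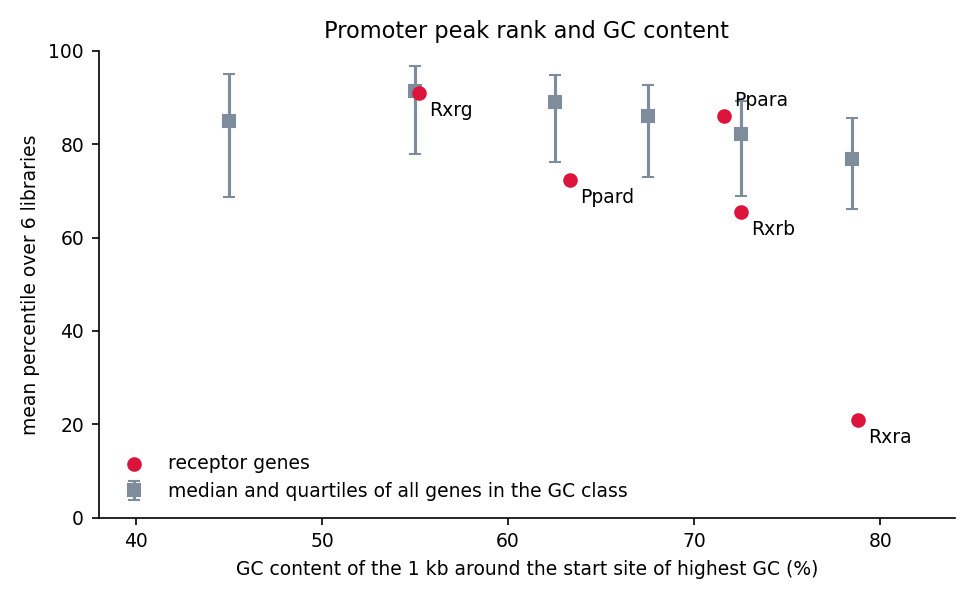
Mean percentile of the promoter peak over 6 libraries (y axis) against the GC content of the 1 kb around the start site of highest GC (x axis, %). Grey squares and bars are the median and quartiles of genes in 6 classes of GC content, each drawn near the middle of its class, and red points are the receptor genes. Rxra, at 78.8% GC and a percentile of 20.9, lies below the lower quartile of 66.1 of its class.

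The genes nearest to each receptor gene in promoter rank were also listed. By Euclidean distance between the 6 percentiles (0 for a missing peak), the 3 nearest genes were Tcn2, Cyb5d2 and Zzef1 for Ppara (distances 2.82, 3.86 and 3.86), the last pair sharing a peak. For Ppard they were Trim25, Atp8b2 and Ccnd3 (6.59 to 8.55). For Rxra they were Mapk11, Cd72 and Pbx2 (11.2 to 13.5), and for Rxrg Prmt6, Fibin and B4galt4 (4.31 to 4.56). For Rxrb they were Slc39a7 at a distance of 0, then 1600002K03Rik and Dhrs1 (7.84 and 7.94).

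The regions around the genes were next compared by the libraries that held a peak in them. Of the 129 regions 59 (45.7%) were open in all 6 libraries, against 30.2% of all regions, and 32 were open in a single library. Part of this excess lies at promoters. Among regions more than 1 kb from every start site 38 of 103 (36.9%) were open throughout, compared with 25.8% in the genome. The genes differed in this respect. Rxra had 17 of 32 such distal regions open throughout and Rxrg 7 of 10, while Ppara had 4 of 25, Ppard 7 of 25 and Rxrb 3 of 11. Regions of 1 gene are neighbours and not independent, so no test was made.

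**Figure D3:**
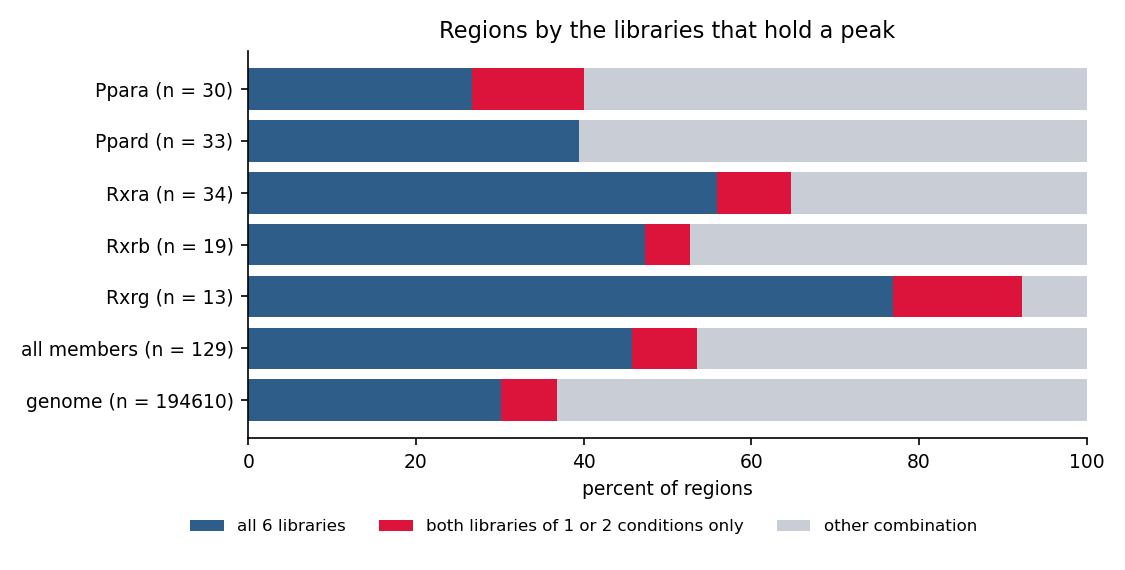
Share of regions (x axis, %) open in all 6 libraries, in both libraries of 1 or 2 conditions and in no other, or in another combination, for each gene, for the 5 genes together and for the genome. The bar of all 6 libraries covers 76.9% of the regions of Rxrg and 26.7% of those of Ppara.

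Regions limited to conditions numbered 10 of 129, and each class is given beside its share of all regions. There were 4 open in beige and brown only (3.10%, against 1.25% of all regions) and 2 in beige and white only (1.55%, against 1.16%). Open in beige only was 1 (0.775%, against 1.94%) and in brown only 3 (2.33%, against 0.877%). None was open in white only (1.23%) or in white and brown only (0.243%). By gene they were 4 of 30 regions at Ppara, 3 of 34 at Rxra, 1 of 19 at Rxrb and 2 of 13 at Rxrg. At Ppard there were none among 33.

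Where a region was open in all libraries, its rank tended to be higher in beige than in white. Both beige libraries ranked above both white ones in 28 of 59 regions (47.5%), against 25.8% of all such regions, and the reverse was seen in 5 (8.47%, against 22.1%). The 28 comprised 6 of 8 at Ppara, 5 of 13 at Ppard, 7 of 19 at Rxra, 6 of 9 at Rxrb and 4 of 10 at Rxrg. Several are promoters of neighbouring genes, so the pattern was not limited to the receptors. Brown ranked above white in 20 of 59 (33.9%, against 22.7%) and white above brown in 11 (18.6%, against 23.9%). Beige and brown were closer to the genome, with beige higher in 16 (27.1%, against 27.3%) and brown higher in 9 (15.3%, against 24.0%). Without white replicate 2 beige ranked higher in 35 of 59 regions, against 39.6% of all, and without white replicate 1 in 38, against 43.5%.

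Ppara was the locus with the largest number of regions limited to conditions, although their share of its regions was smaller than at Rxrg. All 4 at Ppara lay upstream of the gene. It had a peak in 17 and 18 regions in beige, 12 and 14 in white, and 22 and 17 in brown. The upstream side holds Lncppara, a noncoding gene, and the let-7 microRNA genes Mirlet7c-2 and Mirlet7b.

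The clearest of the 4 was the element 14.2 kb upstream (region chr15:85720280-85721021), whose central sequence is printed above. It ranked at 24.2 and 42.3 in beige and 43.7 and 48.0 in brown, with -log10 q of 16.7, 30.1, 33.1 and 29.0, and had no peak in either white library. It stayed open in beige and brown only when lists were cut to equal length and when q was required to be under 0.00001. A second region of this class, 31.6 kb upstream within Lncppara (chr15:85703283-85703590), was much weaker, with percentiles of 1.49, 0.613, 7.85 and 18.8.

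The 2 regions open in brown only lay 17.8 and 10.46 kb upstream (chr15:85717103-85717369 and chr15:85724339-85724613). Both were near the bottom of the lists, at percentiles of 0.374 and 1.33 and of 0.695 and 2.58, and neither kept its class at q under 0.00001.

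Each of them adjoins a stronger element that differed by degree. The element 16.95 kb upstream (chr15:85717788-85718289) ranked at 61.8 and 63.9 in brown, 17.8 and 12.8 in beige and 0.968 in white replicate 2, and was absent from white replicate 1. The element 10.1 kb upstream (chr15:85724655-85725096) ranked at 50.1 and 38.7 in brown, 29.0 and 35.1 in beige and 17.1 in white replicate 2, and was again absent from white replicate 1. In both, brown was highest and white lowest.

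The opposite was seen 18.7 kb upstream (chr15:85716098-85716359). That element ranked at 52.5 and 50.4 in beige and 55.8 and 67.4 in white, but at 0.316 in brown replicate 2, and had no peak in brown replicate 1. Its printed sequence holds a match to the core motif of CTCF, the insulator protein, 30 bases before the summit. The last 3 elements were singled out after their values were seen.

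**Figure D4:**
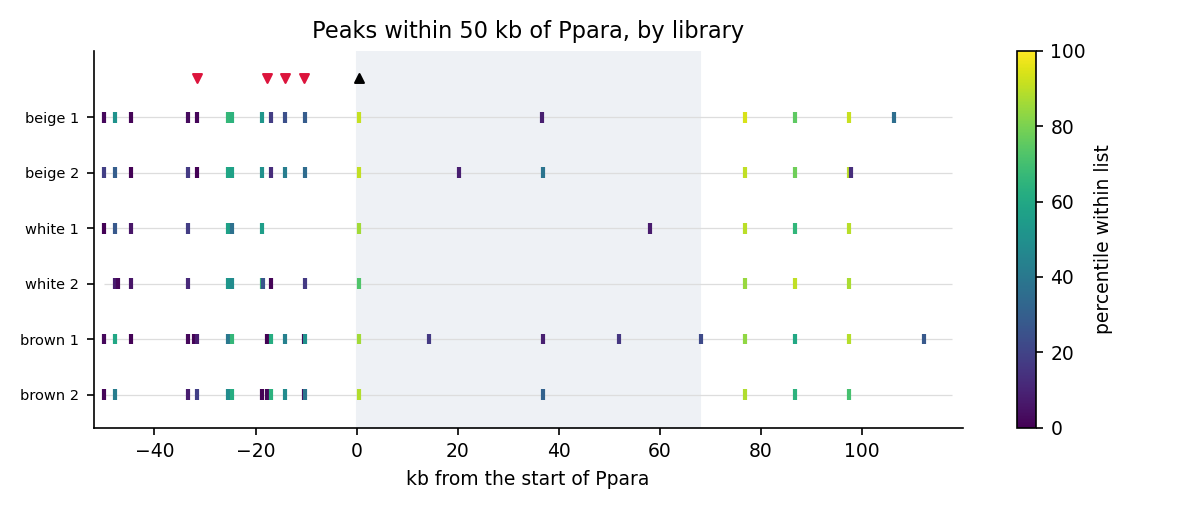
Peaks by library (rows) against the distance of the region's strongest summit from the start of Ppara (x axis, kb). Colour gives the percentile within the list, grey shading the gene, the black triangle the promoter and red triangles the 4 regions limited to 1 or 2 conditions. The 4 lie between 31.6 and 10.46 kb upstream, and no tick inside the gene beyond the promoter is shared by all 6 rows.

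Inside Ppara, by contrast, little was open. The gene spans 67.8 kb (chr15:85734983-85802819), and its 6 regions outside the promoter were each found in 1 to 3 libraries, with none in all 6. Of 2021 genes of 50 to 100 kb with a promoter peak in all libraries, 29.1% likewise had no further region of all 6 libraries within the gene. Ppard, of similar length, had 3, and Rxra had 6, a number that 6.73% of the 2021 genes reached, where the median was 1. The strongest distal element of Ppara open in all libraries lay 24.6 kb upstream (chr15:85709954-85710538), at percentiles of 64.4 and 57.4 in beige, 37.1 and 47.7 in white, and 66.0 and 62.0 in brown. The white libraries were the lowest there and also 47.8 kb upstream. This order did not hold in the other distal regions of Ppara open throughout. The region 25.5 kb upstream ranked at 66.5 and 59.2 in beige, 57.3 and 52.5 in white, and 40.1 and 48.1 in brown, with brown lowest. In that 33.3 kb upstream white also ranked above brown. These further regions were added after their values were seen.

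At Ppard (chr17:28232700-28301474) no region was limited to conditions, and 13 of 33 were open in all libraries. The 3 intronic elements printed above held an AP-1 match 17, 20 and 40 bases after the summit, in the order printed. Those 4.13 and 47.9 kb into the gene also held an AGGTCA match. The strongest, 24.5 kb into the gene, ranked at 87.8 and 84.3 in beige, 75.8 and 86.7 in white, and 85.5 and 82.8 in brown, with white replicate 1 the lowest. The element 4.13 kb in ranked between 41.7 and 54.7, and that 47.9 kb in between 53.2 and 80.5.

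Rxra (chr2:27676440-27762957) had the most regions, 34, of which 19 were open in all libraries. In contrast to its promoter, its element 64.0 kb into the gene (chr2:27739657-27740795) ranked at 86.9 and 93.1 in beige, 94.0 and 89.6 in white, and 92.1 and 88.7 in brown, with no separation between conditions. It covers the start of a noncoding Rxra transcript. When the start sites of all transcripts were used, this peak took the place of the upstream promoter.

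Further regions of Rxra differed between conditions. The element 41.96 kb into the gene (chr2:27718245-27718537) ranked at 40.9 and 42.5 in beige and 33.7 and 16.0 in brown and had no peak in white. It kept this class at q under 0.00001. A region 2.63 kb into the gene (chr2:27678900-27679173) was of the same class but ranked at 5.29 or lower in each of its 4 libraries. A region 8.55 kb upstream (chr2:27667666-27668047) was open in beige and white only, at 22.4, 38.3, 18.6 and 8.04, and lost this class at q under 0.00001. Within the gene, the element 74.4 kb in ranked at 66.1 and 77.0 in beige, 29.7 and 45.4 in white, and 50.2 and 1.71 in brown, so that beige lay above the other 4 libraries although brown varied widely. The element 23.3 kb in had the opposite order, at 82.5 and 73.8 in white, 48.7 and 63.8 in beige, and 61.6 and 59.6 in brown, with white above the other 4. In the element 82.1 kb in both white libraries were the lowest, at 66.9 and 60.8, against 77.1 and 92.7 in beige and 85.9 and 85.0 in brown.

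Rxrb is the shortest of the genes, at 6.59 kb (chr17:34031812-34038399), and lies in the gene-dense histocompatibility region. Its only region limited to a condition was the beige-only element 5.01 kb into the gene (chr17:34036749-34036898), at percentiles of 3.26 and 7.73 and -log10 q of 7.47 and 10.7. It remained beige-only at q under 0.00001 but stood near the bottom of both lists. An exact DR1 match, singled out after the motif search, was found 4.01 kb upstream, in a region at the promoter of H2-Ke6 that ranked at 7.11 or lower and had no peak in beige replicate 1. The strongest distal region lay 45.9 kb from the start (chr17:34077620-34077895), at 81.5 and 92.1 in beige, 67.4 and 88.2 in white, and 44.4 and 73.6 in brown. Beige lay above brown there, while white overlapped both.

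At Rxrg (chr1:167598384-167639623) 10 of 13 regions were open in all libraries. The strongest distal element, 46.7 kb from the start and past the end of the gene (chr1:167644798-167645431), ranked at 97.7 and 96.7 in beige, 91.2 and 96.1 in white, and 96.8 and 95.0 in brown. A pair of intronic elements was weaker in brown than in beige. The element 39.9 kb in ranked at 58.0 and 58.3 in beige, 67.5 and 74.7 in white, and 26.2 and 29.9 in brown, so that the 3 conditions did not overlap. The element 38.8 kb in ranked at 79.8 and 83.6 in beige and 60.4 and 18.9 in brown, while the white libraries gave 1.34 and 79.8. The region 31.8 kb upstream was open in brown only, at 22.2 and 11.7, and was lost altogether at q under 0.00001. The region 89.6 kb from the start, open in beige and white only at 1.08, 42.7, 45.7 and 26.4, lies near the promoter of Lmx1a, a neighbouring transcription factor gene, and cannot be assigned to Rxrg.

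**Figure D5:**
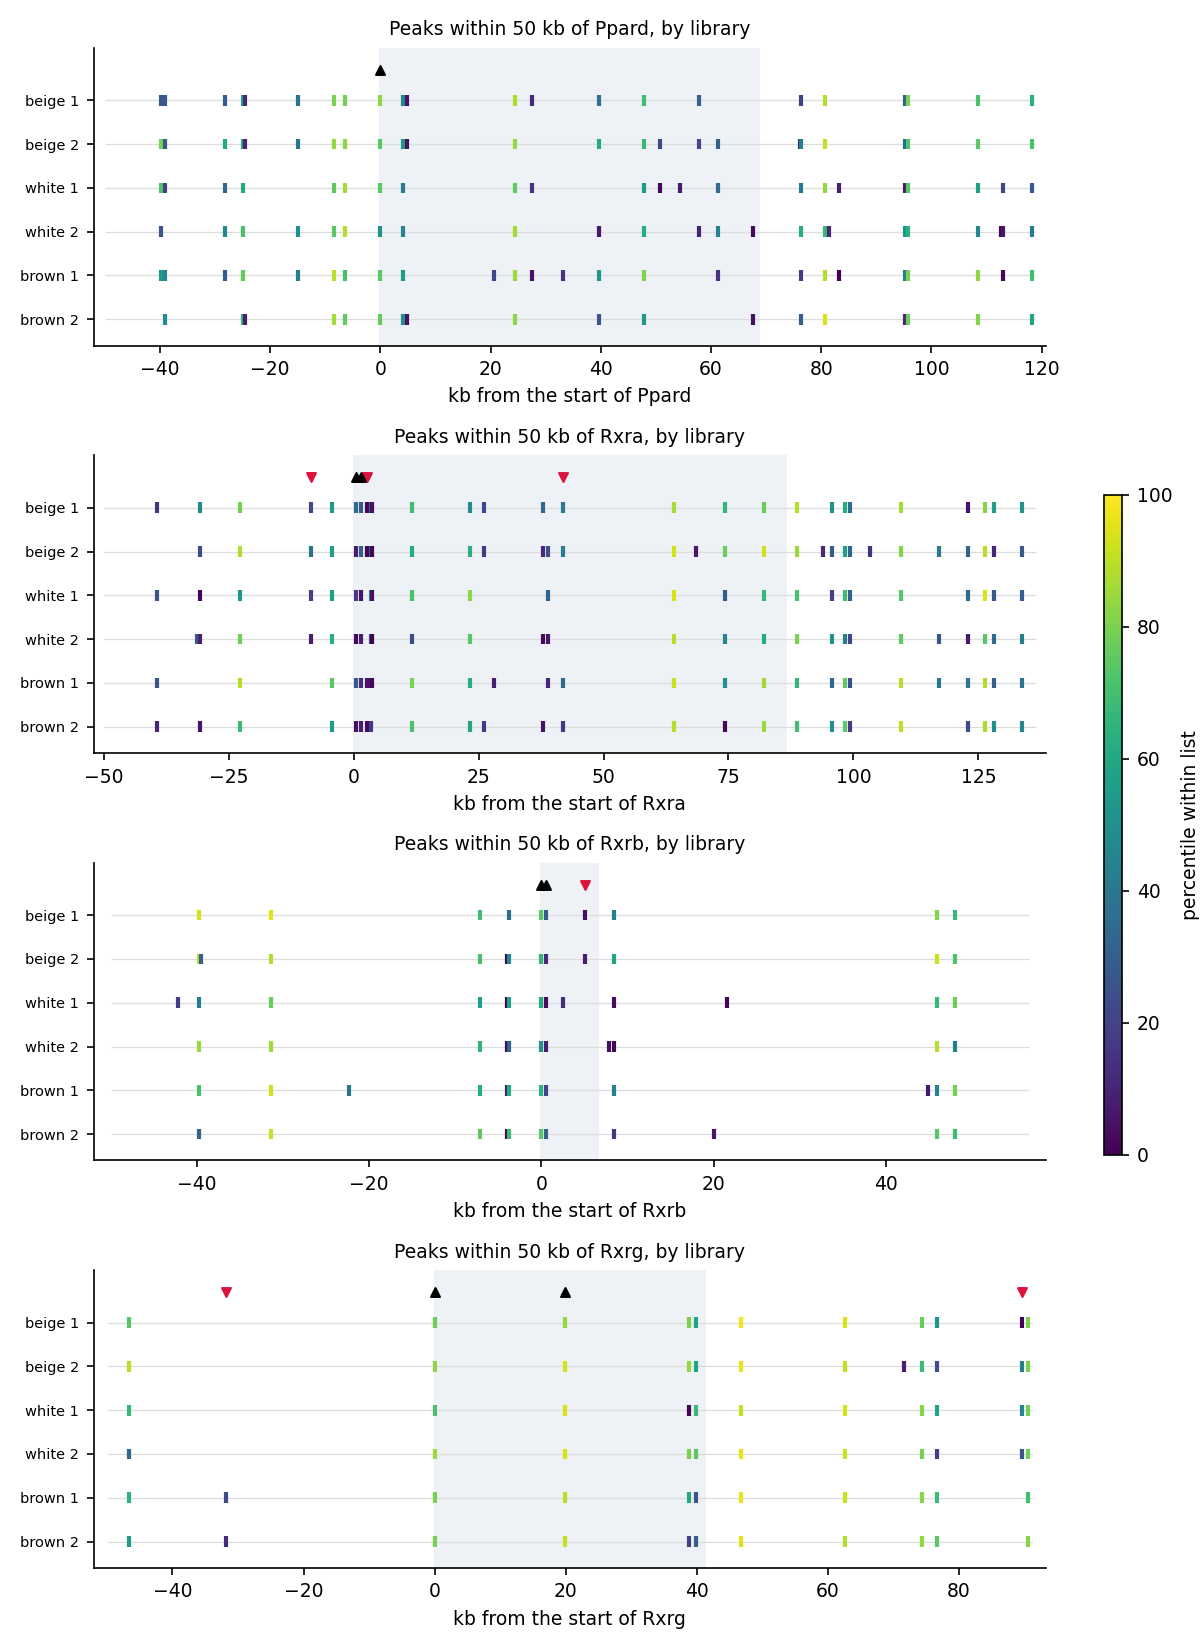
Peaks by library (rows) against the distance from the start of Ppard, Rxra, Rxrb and Rxrg (x axes, kb), drawn as for Ppara. Colour gives the percentile within the list. The Rxra promoter (black triangles) is dark, at 34.5 or lower, while the element 64.0 kb into that gene ranks between 86.9 and 94.0.

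The windows of 200 bp at the strongest summits were searched on both strands for the sites of receptors and of adipocyte and general factors. The motif AGGTCA was found in 19 of the 129 windows (14.7%), and in 14.7% of all 194610. A DR1, as 2 copies 1 base apart with at most 2 mismatches in 12 letters, was found in 5 (3.88%, against 3.60%). A DR4, with 4 bases between the copies and the same allowance, was found in 3 (2.33%, against 2.83%). The 3 shares were close to those of all windows, and a DR1 or DR4 can hold AGGTCA, so that these counts overlap. Of the 10 regions limited to conditions, that at Rxrb held the DR1 match and that at 41.96 kb in Rxra the DR4 match, while the element 14.2 kb upstream of Ppara held no match to any of the motifs searched. An exact AGGTCA was found more than once in that at Rxrb. It was also found in those 31.6 kb upstream of Ppara and 31.8 kb upstream of Rxrg.

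The AP-1 match TGANTCA was in 25 windows (19.4%, against 21.2%), of which 8 were at Ppard, 9 at Rxra, 4 at Rxrg and 2 each at Ppara and Rxrb. The C/EBP match TTGCNNAA was in 12 (9.30%, against 12.5%), the CTCF core in 7 (5.43%, against 3.49%), the ETS match CCGGAAG in 3 (2.33%, against 2.34%) and the glucocorticoid response element, AGAACA and TGTTCT 3 bases apart with at most 2 mismatches, in 2 (1.55%, against 1.70%). The NF1 palindrome, TTGGC and GCCAA 5 bases apart, was in 0 of 129 and in 0.0678% of all windows. A match describes letters in a window and does not show that a factor was bound.

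The wider pathway was read from 4 lists of 61 genes in all. A promoter peak was present in all libraries for 12 of 14 partner receptors of the RXRs (Pparg included), 12 of 12 coactivators and corepressors, 11 of 15 genes of ligand supply and retinoid handling and 14 of 20 PPAR target genes, that is 49 of 61 (80.3%, against 62.0% of all genes). Promoters of Nr1i3, Cyp26a1 and Ucp3 had no peak in any library. Several target genes lacked a peak in 1 library only. Cpt1b, for an enzyme of fatty acid entry into mitochondria, and Fgf21 lacked it in white replicate 1. Plin5, a lipid droplet protein, lacked it in white replicate 2, and Vnn1 in brown replicate 1. Of the 49 promoters 7 ranked higher in both beige than in both white libraries (28.6% of all promoters did) and 16 ranked in the reverse order (19.8%). Beige ranked above brown at 6 (17.3%) and brown above beige at 22 (33.4%). Brown ranked above white at 15 (34.8%) and white above brown at 12 (14.9%).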

How the data were processed

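The data are ATAC-seq peak lists of 6 libraries, 2 each of beige, white and brown adipocytes. The authors trimmed the reads, aligned them to mm10 with BWA and called peaks with MACS2 at q under 0.05, per the labels and methods. The methods describe the beige and white libraries, and the labels name the same tools for brown. Column 7 of the deposited lists is the fold enrichment at the summit, a ratio over local background, and column 9 is its -log10 q. The lists hold no read counts, so the reads behind a single peak are not known here, and the number of peaks limits the precision. The study gives reads per library for beige and white but not for brown. Both white libraries had more mapped reads, and a larger share mapped, than both beige ones. The part of this difference in the comparisons of beige with white was not tested. Beige and white libraries from one depot and brown libraries from another were grouped by their labels.

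Intervals listed with several summits were counted once, at the summit of highest -log10 q. Peaks overlapping by at least 1 bp were joined into regions. Start sites were those of GENCODE M21 basic protein-coding transcripts. Sequences were read from the GRCm38 genome. Python 3.11.15, numpy 2.4.6 and pandas 2.3.3 were used, and promoter calls, region classes and the motif search were tested on simulated data. No test was made between conditions. Text names were taken by a fixed rule: the 5 genes, their promoter regions, all regions limited to conditions, the strongest distal region of each gene open in all libraries, the 3 most similar genes and the listed pathway genes. Other elements are marked as chosen later or are regions of all 6 libraries within a gene, chosen after their values were seen. The genes and lists were chosen with earlier results of these data known. Alternatives were the threshold of q, equally long lists, the promoter width, the start sites, the window, the joining of peaks, the ranked measure and each library left out.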

Additional observations from a re-analysis of the deposited data

How the results depend on the processing

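All 5 promoters kept a peak in every library under each alternative run. Median percentiles of the 5 promoters were 78.9 in beige, 62.9 in white and 75.3 in brown. Ppard was the middle gene in every library, so these are its own means and not a shift shared by the 5 genes. Its beige and white libraries overlapped. Ranked by -log10 q in place of fold, they were 93.8, 86.6 and 89.1. Ranked among promoter peaks alone, a choice made after seeing the data, they were 35.8, 21.9 and 27.9. With the start sites of all transcripts they were 87.4, 79.4 and 87.5. There the Rxra peak 64.0 kb into the gene replaced its weak promoter, so the middle gene changed, and the white and brown values are the means of Ppara. At q under 0.00001 the medians were 74.0, 50.6 and 67.9. The cause of the other changes was not tested. The difference between beige and white at Rxra turned to -4.64 with 3 kb promoters and to -1.82 with all start sites, where that between beige and brown was -0.39. The number of regions was 129. It was 79 with windows of 20 kb and 228 with 100 kb, of which 34 and 99 were open in all libraries, since the windows hold less or more of the genome. The regions limited to 1 or 2 conditions numbered 20 with 100 kb and 16 when peaks were joined by summits within 150 bp. Leaving out 1 library moved them from 10 to between 14 and 26, since a condition then rests on 1 library. The highest number came without brown replicate 2, and the others over 1.5 times the count were 22 without beige replicate 1, 20 and 19 without white replicates 1 and 2, and 19 without brown replicate 1. Over the same omissions the median percentile ranged from 74.5 to 83.3 in beige, from 50.9 to 74.9 in white and from 74.4 to 76.2 in brown, the regions from 120 to 133 and those open in all libraries from 60 to 65. Those medians were again set by Ppard alone. Of the 10 regions limited to conditions 10 kept their class at q under 0.01, 7 in equally long lists and 3 at q under 0.00001. No paired analysis was possible because the results come from no test, and no source ties equal replicate numbers to a shared culture, mouse or day.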
